A study of Mus musculus with 21 samples.

Results

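Semaphorins are guidance cues that were first described in the growing nervous system, and plexins and neuropilins are their receptors. Class 3 semaphorins are secreted and mostly bind a neuropilin that signals through an A-type plexin or plexin D1, whereas class 4 to 6 semaphorins span the membrane and mostly bind B-type or A-type plexins. Plexins act on small GTPases inside the cell and thereby on the cytoskeleton and adhesion, and in carcinomas the family is known for effects on cell migration, vessel growth and nerve contact.

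The genes analysed here were all listed genes with a symbol of the form Sema3 to Sema7 or Plxna to Plxnd, together with Nrp1 and Nrp2. The table held 31 of them among 34478 genes: 20 semaphorins, 9 plexins and 2 neuropilins. Genes that reached 10 normalized counts in 3 or more samples were taken as expressed, which held for 30 of the 31 and for 19300 of all genes. Sema5b was the one left out and reached 11.3 at most. Plxnc1, the receptor of Sema7a, met the limit in 6 samples, 3 of them resistant.

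RNA-seq was available for 21 samples of 6 primary PDAC lines, #3, #4, #6, #7, #9 and #10, each grown from the tumour of a separate mouse. All mice were Ptf1a wt/Cre and Trp53 loxP/loxP, so Cre driven from the Ptf1a locus, which is active in the pancreas, deleted Trp53 in parental cells as in all later states. The age of the mice is not given in the sources used here. Parental cells (6 samples) had never seen the drug. Resistant cells (6) had been adapted to trametinib, a MEK inhibitor (MEKi), and were kept in medium with 100 times the original IC50 of their line. P5 (3 samples, lines #3, #7 and #9) and P12 (6) were resistant cells passaged 5 and 12 times without the drug. For P5 of lines #7 and #9 one label gives 12 drug-free passages, and the group name P5 is used here. Each line gave 1 library per state, so lines are the replicates.

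The spacing of the low values gave an estimate of 24.1 to 42.7 M reads per sample (M for mega), so that 3 reads were worth 2.31 to 4.07 normalized counts (counting error only). The summed level of 8 epithelial markers had a median of 255200 normalized counts in parental and 62470 in resistant cells, with a parental range of 16030 to 294300 and a resistant range of 1142 to 210800. Line #9 held the lowest parental value, with Cdh1 at 816.5 against 26490 to 53230 in the other parental samples. Epcam, a defining epithelial marker, was at 0 in 20 of 21 samples and at 3.61 in the other. Of 4 mesenchymal markers the summed median was 143200 in parental (65720 to 249100) and 197100 in resistant cells (93430 to 337100). Among them Cdh2 was higher in the resistant sample of every line, whereas Vim was lower in all lines except #7. Of 7 fibroblast markers the summed median was 469.1 in parental (112.1 to 10430) and 89570 in resistant cells (1890 to 504000). Of 6 endothelial markers it was 81.98 (45.13 to 180.5) and 404.2 (32.75 to 2757), of 6 neuronal and Schwann cell markers 374.1 (318.7 to 1234) and 839.6 (239.9 to 1601), of 5 leukocyte markers 201.7 (137.6 to 249.0) and 321.1 (203.5 to 2902), and of 4 acinar markers 122.6 (42.68 to 273.0) and 74.78 (0 to 522.1). Of the defining genes, Cd3e (T cells), Emcn (endothelium) and Ptf1a (acinar cells) were at most 4.60, 4.13 and 1.03, and Ptprc (leukocytes) was at 3.02 to 20.01. Other markers of these lists were higher. Over the 21 samples Cd68 (leukocytes) was at 117.6 to 404.4 and Tubb3 (neurons) at 109.5 to 1784. Cela1 (acinar cells) was at 0 in resistant cells of line #7 and at 14.18 to 931.2 (P12 of line #4) in the other samples. High in single samples were Csf1r at 2530 in resistant cells of line #10, Tek at 1132 and 2512 in those of lines #4 and #6, and Kdr at 865.2 in those of line #4. Snap25 (neurons) was at 542.6 in parental cells of line #9. Fibroblast markers did not all follow their sum. Dcn was higher in the resistant sample of every line. Pdgfra was lower in that of lines #6 (187.8 to 3.97), #7 (29.15 to 3.63) and #9 (415.6 to 259.0) and higher in the others. Lum was at 139.3 in resistant cells of line #3 and at most 1.20 in the other resistant samples. The part of these marker levels in the results below was not tested, and in bulk RNA fewer cells of a type and less RNA per cell cannot be told apart.

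The RefSeq promoter windows of the 4 genes called in the comparisons below without the cell line in the fit are shown first, since the results turn on these genes. Each window runs from 250 bases before to 50 bases after a start site (GRCm38.p6, 300 bases, 5′ to 3′ on the strand of the gene), and Sema4b and Sema6b have 2 listed starts each. Capitals mark the AP1 motif (TGACTCA or its reverse complement TGAGTCA) and the E-box (CAGGTG or CACCTG), both of which were searched on both strands.
Sema3d, chr5:12382916-12383215, plus strand: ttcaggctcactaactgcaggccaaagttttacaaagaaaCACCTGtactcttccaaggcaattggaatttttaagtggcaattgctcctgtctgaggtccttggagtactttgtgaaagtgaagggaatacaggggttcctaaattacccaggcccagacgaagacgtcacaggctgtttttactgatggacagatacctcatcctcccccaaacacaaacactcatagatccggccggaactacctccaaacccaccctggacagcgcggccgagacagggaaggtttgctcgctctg
Sema6b, chr17:56133803-56134102, minus strand: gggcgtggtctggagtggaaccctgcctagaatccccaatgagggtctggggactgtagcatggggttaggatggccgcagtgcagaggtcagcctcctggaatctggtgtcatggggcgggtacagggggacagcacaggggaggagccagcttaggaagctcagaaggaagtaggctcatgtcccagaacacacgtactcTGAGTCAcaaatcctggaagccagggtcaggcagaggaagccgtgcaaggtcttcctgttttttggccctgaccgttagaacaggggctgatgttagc
Sema6b, chr17:56140294-56140593, minus strand: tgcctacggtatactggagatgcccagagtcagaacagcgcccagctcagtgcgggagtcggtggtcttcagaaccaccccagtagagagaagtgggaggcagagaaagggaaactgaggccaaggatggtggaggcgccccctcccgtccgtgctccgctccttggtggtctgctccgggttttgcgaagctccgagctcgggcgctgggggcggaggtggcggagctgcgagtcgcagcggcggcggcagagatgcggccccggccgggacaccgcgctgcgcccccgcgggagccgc
Sema4b, chr7:80186620-80186919, plus strand: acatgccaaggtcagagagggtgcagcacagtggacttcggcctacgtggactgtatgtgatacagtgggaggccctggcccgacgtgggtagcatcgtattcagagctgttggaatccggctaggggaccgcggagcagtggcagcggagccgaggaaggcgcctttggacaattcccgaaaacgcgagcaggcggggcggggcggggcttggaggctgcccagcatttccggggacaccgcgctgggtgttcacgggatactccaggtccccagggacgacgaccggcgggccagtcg
Sema4b, chr7:80198338-80198637, plus strand: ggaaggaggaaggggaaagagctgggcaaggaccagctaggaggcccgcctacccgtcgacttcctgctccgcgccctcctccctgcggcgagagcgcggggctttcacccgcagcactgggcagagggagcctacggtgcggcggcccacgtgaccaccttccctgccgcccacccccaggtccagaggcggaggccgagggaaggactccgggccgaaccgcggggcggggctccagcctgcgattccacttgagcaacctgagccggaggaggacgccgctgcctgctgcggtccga
Sema7a, chr9:57939862-57940161, plus strand: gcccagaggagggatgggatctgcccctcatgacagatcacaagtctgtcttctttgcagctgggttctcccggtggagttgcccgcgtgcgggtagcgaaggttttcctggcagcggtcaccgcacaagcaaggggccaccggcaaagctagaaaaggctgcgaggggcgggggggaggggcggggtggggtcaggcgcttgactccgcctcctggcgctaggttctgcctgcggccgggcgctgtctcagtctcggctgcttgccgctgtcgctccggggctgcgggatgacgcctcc
In the Sema3d window 1 E-box began at position -210 from the RefSeq start. This window ends before the start of the gene in GENCODE M21 (12383385), so the 2 annotations differ. Of the 2 Sema6b windows, 1 held 1 AP1 motif. That window (56133803-56134102) lies inside the gene, and the window at its 5′ end (56140343) held none. Neither motif occurred in the Sema4b and Sema7a windows. Windows were listed for 26 of the 31 genes, 37 windows in all, but not for Plxna1, Plxna4, Sema3b, Sema3f and Sema6a. The AP1 motif occurred in 2 of the 37 windows (Sema4c, Sema6b) and in 5.2% of all 32851 promoters, and the E-box in 5 (Plxnb2, Sema3d, Sema4c, Sema4f, Sema6d) and in 20.2%. An ETS motif (CCGGAAGT or ACTTCCGG) was in none of the 37 windows and in 3.89% of all promoters, and a TEAD motif (GGAATG or CATTCC) was in 3 (Plxnb1, Plxnd1, Sema4a) and in 14.7%. The CG dinucleotide occurred 8 times in the Sema3d window, 23 times in that of Sema7a, 26 and 28 times in those of Sema4b, and 6 and 29 times in those of Sema6b. A match describes the letters only.

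Levels of different genes were compared per kb of exon. Plxnb2, a receptor of class 4 semaphorins, had the highest median over the 21 samples at 3677 normalized counts per kb, ahead of the secreted Sema3c at 1582 and of Plxna1, a co-receptor for class 3 semaphorins, at 1040. The ranges of these 3 over the samples overlapped (1636 to 8997, 27.7 to 5490 and 660 to 2996). Sema3e, a ligand of plexin D1, followed at 411 and Sema3f at 363 per kb. Of the receptors, Nrp2 stood at 281, Plxnb1 at 225, Plxnd1 at 183 and Nrp1 at 157 per kb, while Plxnb3 at 3.16 and Plxnc1 at 0.177 were the lowest plexins. Sema3d had a median of only 15.3 per kb but ranged from 0.698 to 3163.

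Resistant and parental cells were compared first, to ask which ligands and receptors differed once the cells grew under MEK inhibition. Without the cell line in the fit, 3 of 30 genes passed (limma, adjusted p below 0.01 and log2 fold change beyond 1): Sema3d rose, and Sema6b and Sema4b fell. Of all genes tested 5.3% passed. With the cell line as a block, which compares the states within each line, 9 of 30 passed against 10.5% of all genes, and 6 of them were higher (Sema3d, Sema3a, Sema3f, Plxna4, Plxnb3, Plxnb2) and 3 lower (Sema6b, Sema4b, Sema4a). The median log2 fold change was 0.25 over the 30 genes and -0.005 over all genes, and the median absolute change was 1.70 against 0.497. The difference had the same sign in 6 of 6 lines for 12 of the 30 genes, 7 higher and 5 lower, against 18.5% of all genes. The 6 resistant and 6 parental values did not overlap for 2 genes, Sema3d and Sema6b, against 5.99% of all genes.

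Log2 fold changes were positive for 6 of the 7 secreted semaphorins, and 3 of them passed with the block. Sema3d, which binds Nrp1 and acts on vessels and heart, lay at chr5:12383385-12588948 on the plus strand (mm10, GENCODE M21). Its normalized counts ran from 8.54 (line #10) through a median of 66.6 to 110.2 in parental cells and from 877.2 (line #9) through 5403 to 27190 (line #4) in resistant cells. Every resistant sample was thus above every parental sample. Sema3d rose by a log2 fold change of 6.52 (SE 1.183, 91.7-fold, n = 6 per state, limma adjusted p = 0.00128), with 4.12 (line #9) as the smallest and 8.13 (line #6) as the largest difference within a line. Without line #3 the adjusted p was 0.0102 and the call was lost. Sema3d was also the secreted semaphorin with the largest share of its variance between the states of parental, resistant and P12 cells (62.9%).

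Sema3a, the ligand of Nrp1 and A-type plexins that collapses growth cones, had parental values from 47.5 (line #7) through 381.3 to 2905 (line #9) and resistant values from 1246 (line #9) through 4167 to 7847. In 5 lines it was higher in the resistant cells by 2.91 to 5.53 on the log2 scale, whereas in line #9 the difference was -1.22. The log2 fold change of 3.51 (SE 0.87) was not called without the block (limma adjusted p = 0.0105) and was called with it (0.00204, block SE 0.69). Without line #9, Sema3a and Plxnb3 were called as well, which made 5 genes in place of 3.

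Sema3f, which signals mostly through Nrp2, ranged from 89.5 through 635.8 to 2340 in parental and from 1167 through 2748 to 7935 in resistant cells. It was higher in the resistant sample in 6 of 6 lines, although the groups overlapped. Its log2 fold change of 2.36 (SE 0.59) had a limma adjusted p of 0.0116 without and 0.000712 with the block. Sema3c, a ligand of both neuropilins, was the most abundant semaphorin per kb and ranged from 1321 (line #9) through 10570 to 17160 in parental and from 12370 (line #9) through 22940 to 39200 in resistant cells. Sema3c was likewise higher in 6 of 6 lines but was called in neither fit (log2 fold change 1.52).

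The other secreted semaphorins were not called. Sema3g ranged from 5.45 through 9.16 to 59.0 in parental and from 15.3 (line #7) through 85.5 to 448.0 in resistant cells. The groups overlapped, line #7 differed by -0.01, and Sema3g had a log2 fold change of 2.62 (SE 1.15, limma adjusted p = 0.132). Sema3b, which acts through neuropilins like the other class 3 members, ranged from 544.2 through 1486 to 1920 in parental and from 184.9 (line #7) through 1874 to 2994 in resistant cells. Sema3e and Sema3b had log2 fold changes of 0.57 and -0.10, with signs that differed between lines. Sema3e was at 190.6 in parental cells of line #9 and at 3812 to 5501 in the other parental samples.

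**Figure D1:**
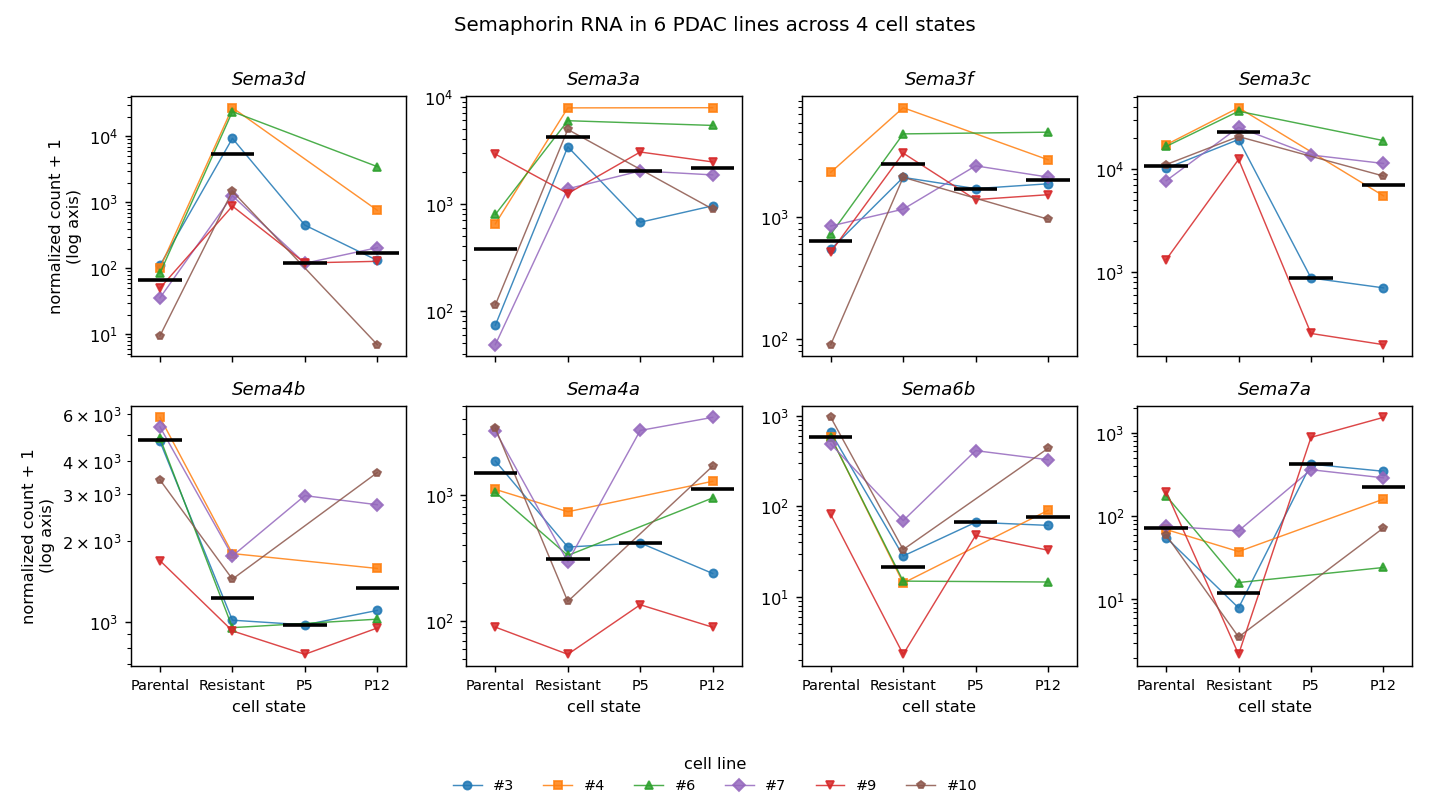
Normalized count plus 1 (log axis) of 8 semaphorins in parental, resistant, P5 and P12 cells; each point is 1 sample, coloured lines join the samples of a cell line and black bars mark the medians. For Sema3d every resistant sample (877.2 to 27190) lies above every parental sample (8.54 to 110.2), and for Sema6b every resistant sample (1.33 to 68.6) lies below every parental one (80.4 to 959.4).

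Log2 fold changes were negative for 9 of the 12 membrane-bound semaphorins: 4 of 6 in class 4, 3 of 4 in class 6, Sema5a and the GPI-anchored Sema7a. Of the 9, Sema6b and Sema4b passed without the block and Sema4a only with it. Sema6b, a ligand of A-type plexins (chr17:56123085-56140343, minus strand), ran from 80.4 (line #9) through 582.5 to 959.4 in parental cells and from 1.33 (line #9) through 20.6 to 68.6 (line #7) in resistant cells. The groups did not overlap, and the resistant value of line #9 was below that of 3 reads. Sema6b fell by 4.66 on the log2 scale (SE 0.89, 25.3-fold lower, n = 6 per state, limma adjusted p = 0.00187). Without line #3 or line #4 it was no longer called (adjusted p at most 0.0155).

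Sema4b, a class 4 membrane semaphorin (chr7:80186841-80226527, plus strand), had parental values from 1694 (line #9) through 4790 to 5805 and resistant values from 925.8 (line #9) through 1230 to 1800. The parental sample of line #9 alone reached into the resistant range. The gene fell by 1.66 (SE 0.39, 3.16-fold lower, limma adjusted p = 0.00789), and leaving out any of lines #3, #4, #6 and #10 lost the call, as did dropping the filter or the trend (adjusted p at most 0.0494). Sema4a, known from immune cells and the retina, ranged from 88.8 (line #9) through 1473 to 3352 in parental and from 53.7 through 311.8 to 732.5 in resistant cells. It was lower in 6 of 6 lines and was called only with the block (log2 fold change -2.20, SE 1.00, limma adjusted p = 0.147 without and 0.00839 with it).

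Sema7a, which binds plexin C1 and beta1 integrins, ranged from 54.3 through 71.4 to 195.4 in parental and from 1.20 (line #9) through 10.9 to 65.5 (line #7) in resistant cells. It was lower in 6 of 6 lines, with differences between -0.18 (line #7) and -6.48 (line #9) on the log2 scale, and was called in neither fit (log2 fold change -2.98, SE 0.88, limma adjusted p = 0.027, 0.0231 with the block). Sema4d, the ligand of plexin B1, was lower in 5 of 6 lines, with parental values from 313.8 through 779.9 to 1431 and resistant values from 74.4 through 178.5 to 1654. The highest resistant value was that of line #9, the line with the lowest parental value, and the log2 fold change of -1.58 was not called.

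Of the remaining membrane-bound genes, none was called. Sema5a was higher in 3 lines and lower in 3, with parental values from 87.6 through 569.7 to 3572 and resistant values from 3.74 (line #9, no more than 3 reads) through 594.4 to 1597. Sema4f ranged from 18.04 to 577.7 in parental and from 25.7 to 10260 in resistant cells, with the highest values in resistant cells of lines #7 and #6. Sema6c had a log2 fold change of 1.86, Sema6a of -2.32, Sema4g of -1.69, Sema6d of -1.25 and Sema4c of 0.36.

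Plexins of the B type were higher in resistant cells in 6 of 6 lines. Plxnb2 (chr15:89155549-89180788, minus strand) ranged from 12720 (line #9) through 23460 to 34910 in parental and from 24380 (line #9) through 51280 to 69460 in resistant cells. The differences within lines were close to each other, from 0.89 to 1.63 on the log2 scale. Plxnb2 was called only with the block (log2 fold change 1.05, SE 0.35 without and 0.15 with the block, limma adjusted p = 0.047 and 0.000239).

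Plxnb3, a receptor of Sema5a, ranged from 3.12 through 13.2 to 25.2 in parental cells, where the lowest value (line #9) was under that of 3 reads. In resistant cells it was at 10.6 in line #9 and at 406.3 to 2698 in the others. Its log2 fold change of 4.95 (SE 1.35, 30.9-fold) had a limma adjusted p of 0.018 without and 0.000943 with the block. Plxnb1, the Sema4d receptor, ranged from 558.5 through 1130 to 2525 in parental and from 2237 through 5922 to 13340 in resistant cells, and was called in neither fit (2.16, SE 0.77, adjusted p = 0.0638, 0.0185 with the block).

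A-type plexins did not share a direction. Plxna4 (chr6:32144268-32588192, minus strand), a receptor for Sema3a and Sema6 ligands, ranged from 29 (line #9) through 223.8 to 822.0 in parental and from 456.9 (line #10) through 4885 to 34860 (line #4) in resistant cells. The difference was 7.60 and 6.95 on the log2 scale in lines #3 and #4 but 0.14 in line #10. The log2 fold change of 4.49 (SE 1.31, 22.5-fold) was called only with the block (limma adjusted p = 0.026 without and 0.00756 with it). The annotation places the antisense genes Plxna4os1, Plxna4os2 and Plxna4os3 within Plxna4, and the strand setting of the counting is not given in the sources used here.

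Plxna3 was lower in the resistant cells in 6 of 6 lines (log2 fold change -1.179) and Plxna1 and Plxna2 differed by 0.49 and -0.83, with no call in either fit. Plxnd1, the Sema3e receptor of vessels, had a log2 fold change of -0.52 and was lower in 5 lines and higher, by 1.89, in line #9. Plxnc1 was at 0 in 4 of 6 parental samples and was at most 46.7 in resistant cells.

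Neuropilins showed no shift shared by the lines. Nrp1, which serves both class 3 semaphorins and VEGF, ranged from 646.3 through 1026 to 1886 in parental cells, and in resistant cells it was at 57.8 in line #9 and at 1109 to 2472 in the others. It was higher in 5 of 6 lines, by 0.39 to 1.80 on the log2 scale, and differed by -4.53 in line #9, which gave a log2 fold change of 0.13 (SE 0.82, limma adjusted p = 0.938). Nrp2 ranged from 718.3 (line #10) through 2733 to 12210 (line #9) in parental and from 1330 through 1945 to 6706 (line #9) in resistant cells, and was higher in 2 lines and lower in 4 (-0.01, SE 0.70, adjusted p = 0.994).

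**Figure D2:**
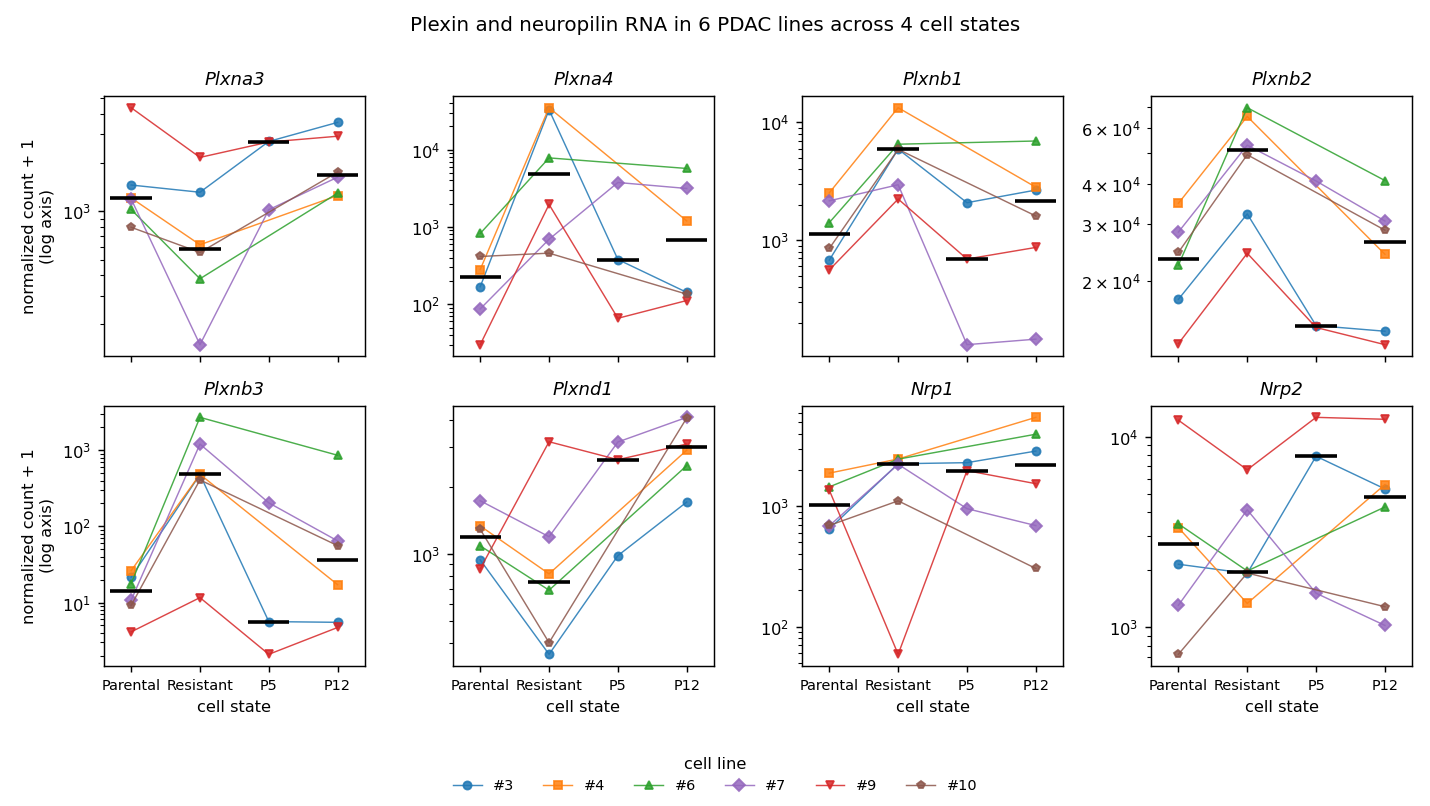
Normalized count plus 1 (log axis) of 6 plexins and both neuropilins in the 4 cell states; points are samples, coloured lines join the samples of a cell line and black bars are medians. Plxnb2 is higher in the resistant sample of every line and lower again in every P12 sample, whereas Nrp1 is at 57.8 in resistant cells of line #9 and at 1109 to 2472 in the other resistant samples.

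**Figure D3:**
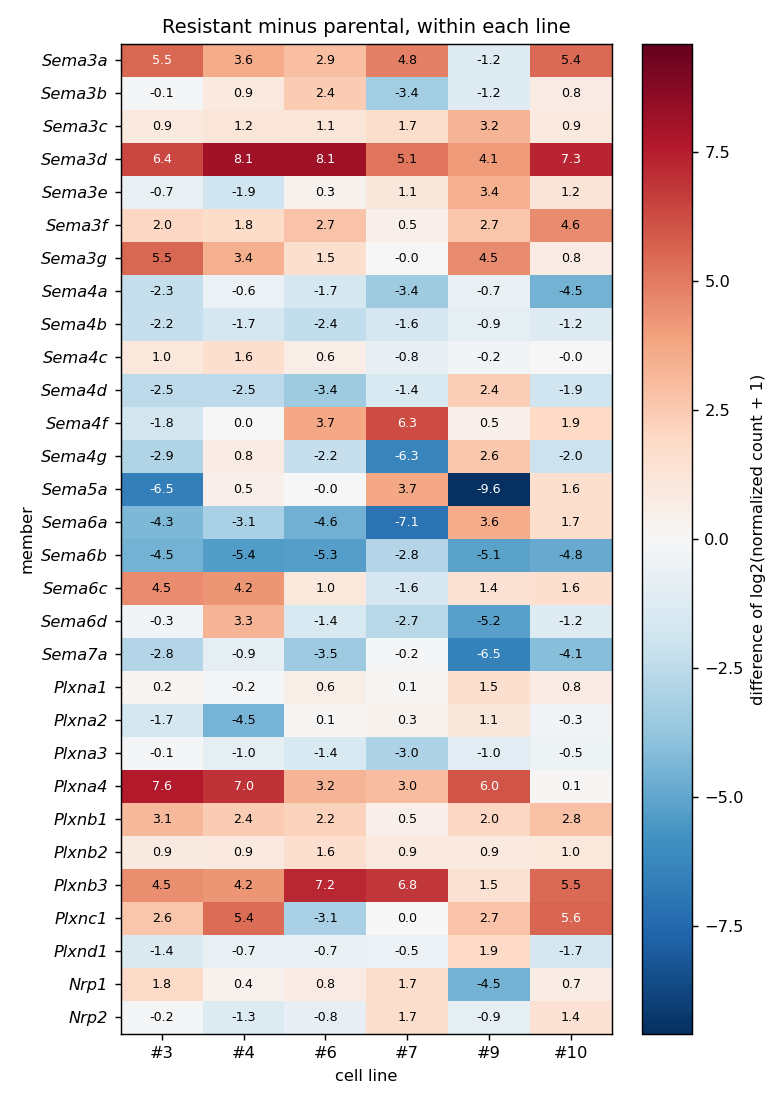
Difference of log2(normalized count + 1) between the resistant and the parental sample of each line (columns) for the 30 expressed genes (rows), red for higher and blue for lower in resistant cells. Sema3d is positive (4.12 to 8.13) and Sema6b negative (-5.36 to -2.81) in all 6 lines, while Sema3a and Nrp1 have the opposite sign in line #9 only.

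P12 cells were set against resistant cells to ask which of the genes differed after 12 passages without the drug. Without the block 1 of 30 genes passed, Sema7a, against 2.13% of all genes. With the block 6 of 30 passed against 4.52% of all genes, with Sema7a, Plxnd1 and Plxna3 higher and Sema3d, Sema4f and Sema3c lower. With the block and only the P12 and resistant samples in the fit, a setting chosen after seeing the data, none of the 30 was called, so all 6 calls were lost. The median log2 difference was -0.45 over the 30 genes and 0.022 over all genes, and rescaling to the upper quartile moved the latter to 0.11. In that scaling 2 genes were called, Sema7a and Plxnd1.

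Sema7a (chr9:57940112-57962865, plus strand) was at 1.20 to 65.5 in resistant cells and ranged from 23.2 (line #6) through 222.5 to 1525 (line #9) in P12. In 6 of 6 lines it was higher in P12, by 0.60 (line #6) to 9.44 (line #9) on the log2 scale, although the groups overlapped. The resistant values of 2 samples were at or under 3 reads. Against parental cells Sema7a in P12 differed by 1.03 (limma adjusted p = 0.602, 0.505 with the block), with 5 lines higher and line #6 at -2.86. Against resistant cells Sema7a rose by a log2 fold change of 4.00 (SE 0.88, 16.0-fold, limma adjusted p = 0.00916, 0.00858 with the block). The call did not hold without line #3, #4, #7, #9 or #10, with a pseudocount of 8, without the filter or the trend, or with only the compared states in the fit (adjusted p at most 0.07).

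Sema3d was lower in P12 than in resistant cells in 6 of 6 lines, with P12 values from 6.00 (line #10) through 168.1 to 3482 (line #6). The difference of -4.53 (SE 1.183) was called only with the block (limma adjusted p = 0.0257 without and 0.000667 with it). Sema3c in P12 ranged from 197.6 (line #9) through 7014 to 18820 and was also lower in 6 of 6 lines (-2.82, adjusted p = 0.117 and 0.00832). Sema4f in P12 was at 13.0 to 228.2 and lower in 6 of 6 lines (-3.98, adjusted p = 0.0993 and 0.00696).

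Plxnd1 ranged from 355.3 (line #3) through 751.9 to 3181 (line #9) in resistant cells and from 1709 through 3012 to 4090 in P12. It was higher in P12 in 5 of 6 lines and differed by -0.03 in line #9, and its log2 difference of 1.84 (SE 0.42) had a limma adjusted p of 0.0131 without and 0.00293 with the block. Plxna3 ranged from 148.1 through 586.1 to 2150 in resistant cells and from 1248 through 1683 to 3543 in P12. This gene was higher in P12 in 6 of 6 lines (1.62, SE 0.53, adjusted p = 0.0764 and 0.00465). Plxnb2 was lower in 6 of 6 lines, and its difference of -0.99 stayed inside the fold limit although the blocked adjusted p was 0.000796.

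The other receptors were not called between P12 and resistant cells. Nrp1 in P12 ranged from 303.0 (line #10) through 2208 to 5489 (line #4), and in P5 of lines #3, #7 and #9 it was at 2304, 954.5 and 1977. Nrp2 in P12 ranged from 1019 (line #7) through 4795 to 12350 (line #9), and was at 7895, 1505 and 12640 in P5. Line #9 thus held the highest Nrp2 value in each of the 4 states. Plxna4 in P12 ranged from 110.7 through 668.5 to 5705 and Plxnb3 from 3.71 through 35.5 to 856.7, both with the highest value in line #6. Plxnb2 in P12 ranged from 12630 (line #9) through 26490 to 41130 (line #6).

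P12 and parental cells were compared to ask whether the genes still differed from the untreated state. None of the 30 genes passed in either limma fit, against 0.114% of all genes without and 0.523% with the block. At an unadjusted p below 0.05 limma counted 6 of 30 genes without and 9 of 30 with the block, against 15.3% and 23.8% of all genes. Sema3a in P12 ranged from 890.8 through 2157 to 7877 and Sema3f from 965.3 through 2012 to 4997, and their log2 differences from parental cells were 3.01 (SE 0.87, adjusted p = 0.115) and 1.87 (SE 0.59, 0.139). Both resistant and P12 cells were compared with the same parental samples. Sema4b in P12 ranged from 949.2 through 1344 to 3612 (-1.32, SE 0.39, adjusted p = 0.12), and Sema6b from 13.6 through 74.9 to 436.1 (-2.41, SE 0.89, adjusted p = 0.204). Plxnd1 was higher in P12 than in the parental sample in 6 of 6 lines, by 0.86 to 1.86 on the log2 scale (1.32, SE 0.42, adjusted p = 0.142). With the block the limma adjusted p was 0.0259 for Sema3a, 0.0201 for Sema3f, 0.0137 for Sema4b, 0.0257 for Sema6b and 0.0398 for Plxnd1.

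**Figure D4:**
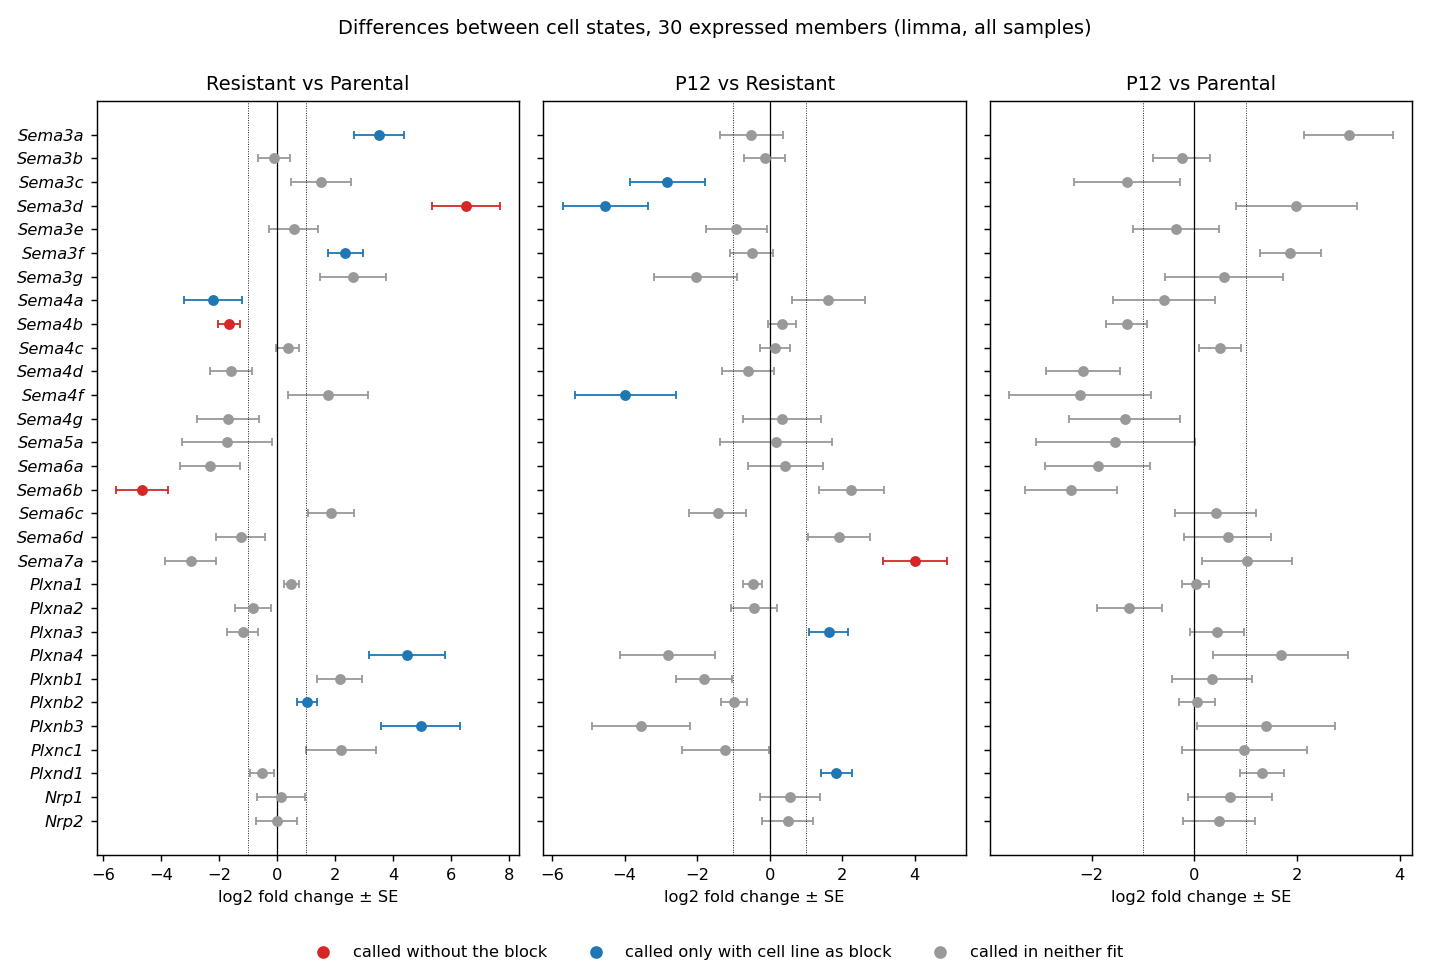
Log2 fold change with its SE (limma, 21 samples) of the 30 expressed genes for 3 comparisons of states; red points were called without the block, blue points only with the cell line as block, grey points in neither, and dotted lines mark the fold limit of 1. Red points are Sema3d (6.52), Sema4b (-1.66) and Sema6b (-4.66) on the left and Sema7a (4.00) in the middle, and none on the right.

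P5 cells of lines #3, #7 and #9 were compared with the resistant cells, and none of the 30 genes passed in either fit, against 0.378% of all genes without and 0.611% with the block. At an unadjusted p below 0.05 the limma counts were 10 and 12 of 30, against 15.4% and 15.8% of all genes. Sema7a was at 418.1, 358.7 and 877.8 in P5 of lines #3, #7 and #9, above all 6 resistant samples (5.45, SE 1.07, limma adjusted p = 0.0121). With the block its log2 difference was 4.99 (SE 1.15, limma adjusted p = 0.0326). Rescaling to the upper quartile brought 1 gene past the threshold and moved the median of all genes from 0.033 to 0.131. Sema3d was at 451.7, 118.7 and 120.0 and Sema3c at 877.3, 13650 and 253.9 in the same order of lines. In each of the 3 lines Sema3d was lower in P5 than in the resistant sample and higher than in the parental sample.

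Lines were compared with the state as a term in the fit, and 3 of 30 genes passed against 7.62% of all genes. Plxnb2 had fitted line means 1.34 apart on the log2 scale (limma F-test, adjusted p = 0.000551), Sema4a 4.42 apart (0.00427) and Sema3d 5.37 apart (0.0063). Without line #9 none of the 30 passed, without line #7 and without the P5 samples 1 passed. Over the 18 samples of parental, resistant and P12 cells, line held a median of 34.5% and state 31.5% of the sum of squares of the 30 genes. Over all expressed genes the medians were 35.8% and 19.8%. These are raw shares, and with 6 lines but only 3 states line takes the larger share even without an effect. The share of line can thus not be set against that of state. The line share was highest for Nrp2 (66.5%), which was highest in line #9 and lowest in line #10, and lowest for Sema7a (10.1%). Line #9 had the lowest mean log2 level of the 6 lines for 12 genes, among them Sema3c, Sema3e, Sema4a, Sema4b, Plxnb2 and Plxnb3, and the highest for 7, among them Nrp2, Plxna3 and Plxnd1.

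Binding partners, processing enzymes and effectors of the pathway were taken from a list of 70 genes, of which 65 were tested. In resistant against parental cells 4 passed without the block (1 higher, 3 lower; 6.15% against 5.3% of all genes) and 10 with it (6 higher, 4 lower; 15.4% against 10.5%). In P12 against resistant cells 2 passed without (3.08% against 2.13%) and 7 with the block (10.8% against 4.52%). The block added Flt4, Rnd1, Dpysl5, Fyn and Plxdc1 as higher and Fes as lower in resistant cells, and Mical2 and Pak1 as higher and Flt4, Rnd1 and Rras2 as lower in P12. None passed between P12 and parental cells. Pak1, a kinase that acts on the actin skeleton downstream of Rac, fell by 4.85 on the log2 scale (SE 1.02, limma adjusted p = 0.00366), and Rnd3, a small GTP-binding protein that acts on the actin skeleton, rose by 1.15 (SE 0.27, adjusted p = 0.00811). Furin, the protease that cleaves class 3 semaphorins, went from a median of 7304 to 2317 and fell by 1.64 (SE 0.39, adjusted p = 0.00899).

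Pgf, a VEGF family ligand that binds neuropilins, fell in resistant cells (-3.98, SE 0.69, limma adjusted p = 0.000843) and rose in P12 (4.78, SE 0.69, adjusted p = 0.000421) and in P5 (5.16, SE 0.84, adjusted p = 0.0033) against resistant cells. Its resistant values of 4.24 to 20.8 lay below the parental values of 75.2 to 242.5. Tgfb1, whose latent form binds Nrp1, rose in P12 against resistant cells (1.61, SE 0.35, limma adjusted p = 0.00852). In resistant against parental cells Tgfb1 differed by -1.30 and was not called (limma adjusted p = 0.0165, 0.012 with the block). Between P12 and parental cells Tgfb1 differed by 0.31 (limma adjusted p = 0.699) and Pgf by 0.79 (0.607). Vegfa and Itgb1, ligand of the neuropilins and receptor subunit for Sema7a, differed between resistant and parental cells by 0.58 and 0.55 and were not called. Of the receptor kinases that associate with B-type plexins, Met differed by -0.67, Erbb2 by -0.74 and Mst1r by 2.61, all without a call. Of the VEGF receptors, Flt1 differed by -0.89 and Kdr by 1.17 and were not called, whereas Flt4 differed by 3.42 and was called only with the block (SE 1.66, limma adjusted p = 0.178 without and 0.00848 with it). Between P12 and resistant cells Flt4 differed by -4.13, again called only with the block (adjusted p = 0.162 and 0.00522). Cd72, a Sema4d receptor of lymphocytes, reached 5.40 at most and was not tested.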

How the data were processed

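RNA of 21 samples from 6 lines was sequenced by the authors (TruSeq Stranded mRNA, on 2 sequencer models with no assignment of samples given, so no comparison within sequencer batches was possible). The signal values deposited by the authors are estimated counts per gene (mm10) from salmon 0.12 and TXImport 1.6, normalized in DESeq2 1.18 after adapter removal with Skewer (0.1.116 or 0.2.2). Counts could not be recovered as whole reads: 58.0% to 73.9% of the low values of a sample lay within 0.05 of a multiple of 1 read. Reads per sample were estimated at 24.1 to 42.7 M, with a median of 32.5 M.

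Genes at 10 or more in at least 3 samples were tested with limma 3.58.1 (R 4.3.3, trend) on log2(value + 1), which understates changes of low genes, in a fit of all 4 states. Calls needed a Benjamini-Hochberg adjusted p below 0.01 over the 19300 genes and a log2 fold change beyond 1. P-values without the block measure the spread between samples of a state, which are lines from separate mice. That fit treats the states of a line as independent. P-values of the block fit and of the F-test between lines measure the spread left after state and line. States of a line are paired by its number in the labels. Deviations of same-line samples from their state means had a mean r of 0.241 (parental and resistant) and 0.457 (resistant and P12). It was 0.316 for parental and P12 and 0.519 for resistant and P5. The mean r across lines (-0.05 to -0.26) follows from the centring on state means and is no separate baseline. Since same-line samples were correlated, the fit with the cell line as block is given where it changes a call. Steps were tested on simulated data. A further allele that all lines share is not reported here.

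Members, the partner list and the marker lists were chosen with earlier results of these data known, and the lists were recalled from general knowledge (Adgre1 and Tyrobp are not analysed here). Values by sample are given for members called in either fit, for both neuropilins, for the most abundant plexin and semaphorin per kb and for members with a sample far from its group, and other members by range. Partners are named where called without the block, with 9 others always named, and those called only with the block were added after their values were seen. Exon lengths and gene positions are those of GENCODE M21, and promoters those of RefSeq (GRCm38.p6), matched by symbol. Alternatives were pseudocounts of 0.5 and 8, no filter, a mean of at least 100, upper-quartile rescaling, the block, only the compared states, no trend, an adjusted p below 0.05, no fold limit, each line left out, no P5 samples and, chosen after seeing the data, the block with only the compared states. Python 3.11.15, numpy 2.4.6, pandas 2.3.3 and matplotlib 3.10.9 were used.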

Additional observations from a re-analysis of the deposited data

Results flagged for a closer look

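In 9 of 90 groups of 6 samples, 1 sample lay far from the other 5 by Dixon's criterion (its gap to the nearest sample over the range of the group), which chance alone gives in about 1 of 20 groups. Line #9 held 7 of the 9. In its parental cells Sema3c was at 1321 normalized counts (others 7687 to 17160), Sema3e at 190.6 (3812 to 5501), Sema4a at 88.77 (1043 to 3352) and Sema6b at 80.36 (487.1 to 959.4), all 4 the lowest of the group. Plxna3 was highest there, at 4368 (793.6 to 1450). In resistant cells of line #9, Nrp1 was at 57.76 (1109 to 2472) and Plxnb3 at 10.6 (406.3 to 2698).

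The remaining cases were Plxnc1, at 30.33 in parental cells of line #6 (0 to 1.475 in the others) and Sema3b, at 455.0 in P12 of line #7 (1162 to 1863). Whether the low epithelial marker level of parental line #9 has a part in its values was not tested.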

How the results depend on the processing

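No gene changed sign in 240 repeats of 15 called gene differences, of which 18 lost and 25 gained the call. The 15 differences were chosen because they were called without or with the block. Only those called without the block could lose the call. Of 16 settings each, Sema7a lost it in 9, Sema4b in 6, Sema6b in 2 and Sema3d (resistant against parental) in 1. The others were chosen because the block called them, so their gain in that setting was fixed in advance. Filters, the block, the trend, the choice of states and the thresholds leave the estimate of these differences unchanged. In those repeats the sign could not change. Among the semaphorins, plexins and neuropilins, the 3 calls between resistant and parental cells became 9 with the cell line as replicate block, 6 with the block and only the compared states, 5 with a mean of at least 100 and 9 at an adjusted p below 0.05. Leaving out 1 line gave 0 to 5 (0 without line #3, 1 without line #4, 5 without line #9). The 1 call between P12 and resistant cells became 6 with the block, 2 after upper-quartile rescaling and 3 at an adjusted p below 0.05. It became 0 with a pseudocount of 8, no filter, only the compared states, no trend or the block with only the compared states, and 0 to 1 with 1 line left out. Between P5 and resistant cells the 0 calls became 1 after rescaling and 1 at an adjusted p below 0.05, and between P12 and parental cells every alternative gave 0. Differences between lines (3 genes) were 13 at an adjusted p below 0.05, 1 without P5 samples and 0 to 3 with 1 line left out.

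Of the partner genes, the 4 calls between resistant and parental cells became 10 with the block, 2 with no filter, only the compared states or no trend, 11 at an adjusted p below 0.05 and 1 to 5 with 1 line left out. The 2 calls between P12 and resistant cells became 7 with the block, 1 with no filter or no trend, 0 with only the compared states, 6 at an adjusted p below 0.05 and 1 to 4 with 1 line left out. The block changed no other call. A value of 3 reads was between 2.31 and 4.07 normalized counts, depending on the sample, and Plxnb3, Plxnc1, Sema3g, Sema4f, Sema5a, Sema5b, Sema6a, Sema6b and Sema7a were at or under it in at least 1 sample. The causes of the moves were not tested.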
